A study of Rattus norvegicus with 44 samples.

Results

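The solute carrier (SLC) genes measured in rat cortex after a permanent stroke comprised 162 genes of 9763 gene symbols in the normalized table of the series. They were chosen by name alone: every symbol made of Slc, a family number, the letter a and a member number was taken, without regard to case, except Slc1a2, Slc1a3, Slc2a1, Slc6a20, Slc17a6, Slc17a7, Slc22a6, Slc32a1 and the mitochondrial Slc25 family. Before these exceptions 194 symbols matched. The 162 genes belonged to 41 families and were read by 191 probes, with more than 1 probe for 27 genes. Of them, 3 are not transporters themselves: Slc9a3r1 and Slc9a3r2 are scaffold proteins that bind a sodium/proton exchanger, and Slc7a6os is named for its place opposite a transporter gene. The gene that the array names Slc24a6 is Slc8b1 in RefSeq, the mitochondrial sodium/calcium exchanger.

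In adult Sprague-Dawley rats a branch of the right middle cerebral artery was ligated permanently, with a passing occlusion of both carotid arteries, and the cortex was taken at 24 h or 3 d. The ischemic groups were infarct core and periinfarct cortex, with contralateral cortex of the same rats. Sham-operated rats underwent the surgery without the occlusion and gave ipsilateral and contralateral cortex at the same times, and ipsilateral cortex of healthy rats, which had no surgery, was the control. Each of the 11 groups had 4 one-color arrays, and every array held RNA pooled from 3 rats, so n = 4 counts pools. A pool number shared by core, periinfarct and contralateral arrays marks the same rats (pools 1 to 4 at 24 h, 9 to 12 at 3 d). Values are log2 signal after quantile normalization, differences are log2 changes of group means with the standard error of the fit, and a gene was called higher or lower at an adjusted p below 0.05 with at least a 2-fold change.

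SLC proteins sit in the plasma membrane and in the membranes of organelles and vesicles and carry ions, metals, sugars, amino acids, transmitters, nucleosides and drugs across them, usually by exchange or by coupling to a sodium or proton gradient. In cortex they are divided among cell types: neurons clear or load transmitters and set their chloride level, astrocytes take up transmitters and supply glutamine, phagocytes export metals and peptides from their endosomes, and the vessels, leptomeninges and choroid plexus control what enters and leaves the brain. Because the gradients that drive them depend on cellular energy, SLC genes are a common subject of work on ischemia.

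The cell content of the samples differed strongly between groups. The summed signal of 8 neuronal marker genes was 92772 to 95407 in healthy cortex, 47634 to 65561 in core and 34212 to 48730 in periinfarct at 24 h, and 24870 to 60786 in core and 34359 to 67959 in periinfarct at 3 d. The summed signal of 8 microglia and macrophage markers was 5839 to 6900 in healthy cortex, 15910 to 18968 and 15414 to 23923 at 24 h, and 48609 to 93634 and 9960 to 58003 at 3 d. All 8 of the latter markers rose at 3 d in core and periinfarct alike, and 4 did at 24 h, while no neuronal marker was called higher. Pool 11 stood apart at 3 d: its periinfarct array had the lowest microglia and macrophage sum of the ischemic arrays (9960, against 40687 to 58003 for the other pools), and its core array the lowest of core at 3 d (48609, against 79461 to 93634). Choroid plexus markers were high on the 3 d core array of pool 12. Their sum also reached 3638 in sham ipsilateral cortex (median 162) and 10906 in contralateral cortex (median 137) at 24 h, against at most 224 in healthy cortex. In bulk tissue, fewer cells of a type and less RNA per cell cannot be told apart, and the part of cell content in the SLC results below was not tested.

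**Figure D1:**
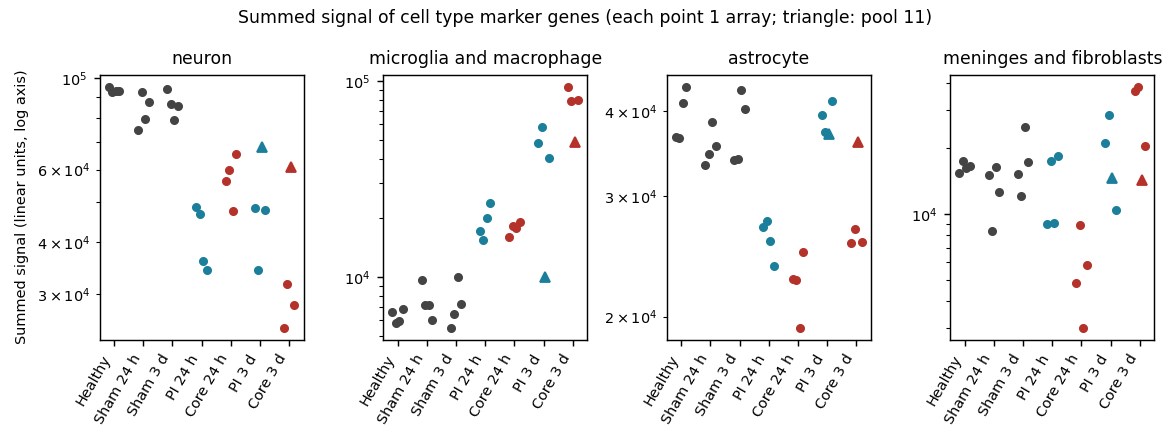
Summed normalized signal (linear units on a log axis, vertical) of marker genes of neurons, microglia and macrophages, astrocytes, and meninges and fibroblasts on each array of healthy, sham ipsilateral, periinfarct (PI) and core cortex (points), with triangles for pool 11. Neuronal sums were lower in all 4 ischemic groups than in healthy cortex, and microglia and macrophage sums rose to 93634 in core at 3 d, with the arrays of pool 11 below the other 3 d arrays of their area.

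Transcripts of most SLC genes were detectable. In each group 149 to 160 of the 162 genes were well above background on all 4 arrays and at most 4 were above it on no array. All 162 passed the probe filters and were tested. Against healthy cortex 75 genes were called in at least 1 of the 4 ischemic groups and 87 in none, and no gene was called higher in one group and lower in another. These 4 comparisons share the 4 healthy arrays, so that their values are given side by side and not as independent evidence.

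At 24 h more SLC genes fell than rose against healthy cortex, whereas against sham cortex 19 rose and 17 fell in core, with 15 and 12 in periinfarct. The share of all genes called against sham cortex was not computed. The counts and shares that follow are against healthy cortex. In core 13 genes rose (8.02% of 162, where 8.02% of all 9722 genes tested were called higher) and 21 fell (13.0%, against 6.55% of all genes). In periinfarct 11 rose (6.79%, against 9.5%) and 25 fell (15.4%, against 9.92%). At 3 d 26 rose in core (16.0%, against 17.1%) and 23 fell (14.2%, against 13.4%), while in periinfarct 13 rose (8.02%, against 9.13%) and 0 fell (against 1.25%). The shares of SLC genes that rose were near or below those of all genes, and the shares that fell at 24 h were above them, a difference that was not tested. The median log2 change of the 162 genes was −0.20, −0.11, −0.16 and −0.03 in core and periinfarct at 24 h and core and periinfarct at 3 d, against −0.16, −0.13, −0.18 and −0.09 over all genes. The 0 of periinfarct at 3 d became 4 without its pool 11 array, 2 without healthy pool 17, and 1 without periinfarct pool 12 or healthy pool 18. The 13 that rose there became 6 without pool 10 and 8 without pool 9.

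**Figure D2:**
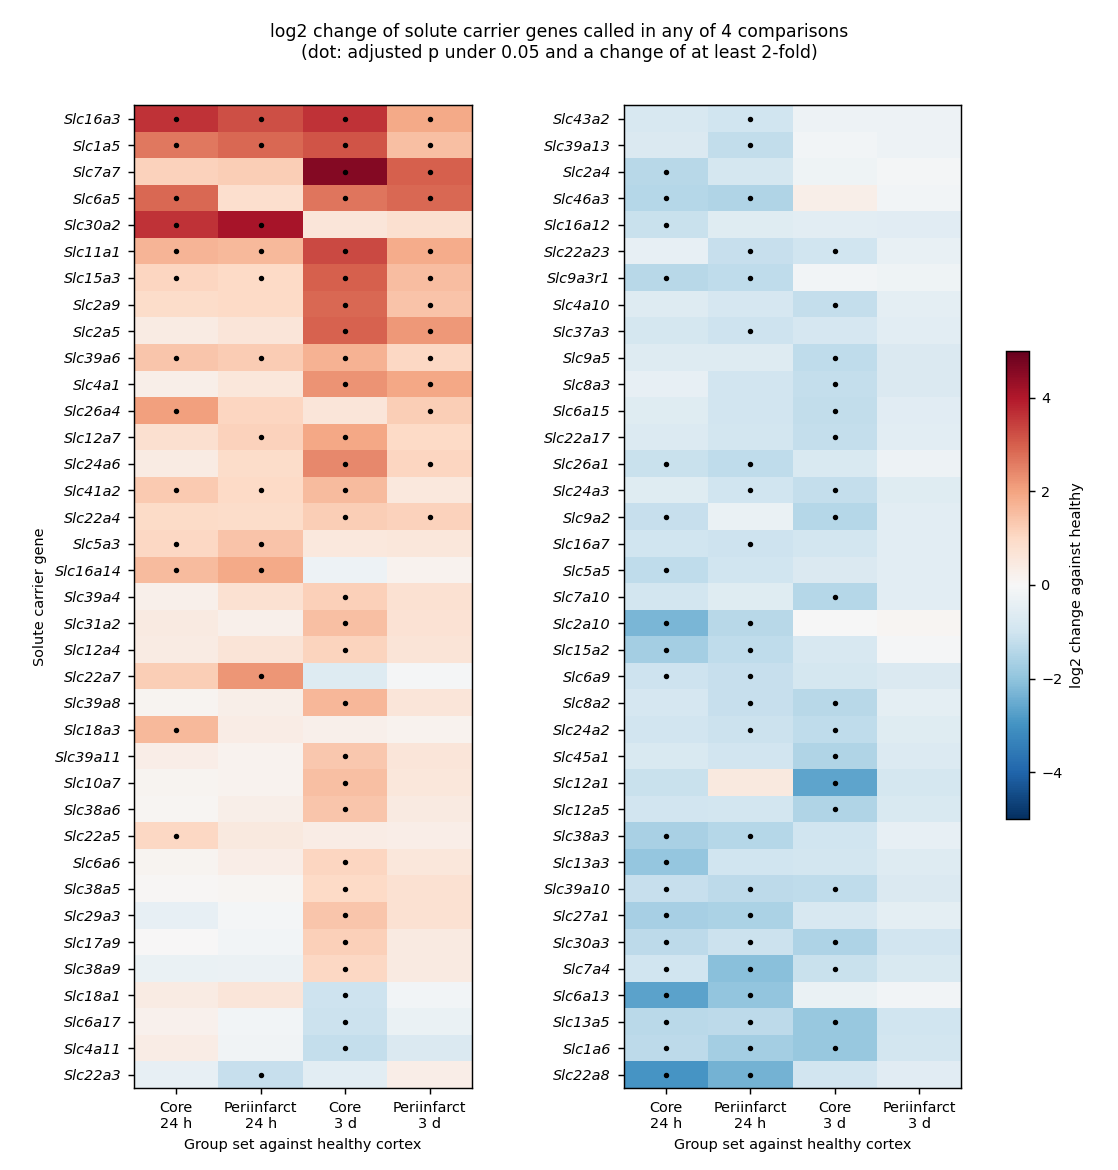
Log2 change from healthy cortex (color) of SLC genes called in any of 4 comparisons (rows) in core and periinfarct at 24 h and 3 d (columns), with a dot where the gene was called. Slc16a3, Slc1a5, Slc11a1, Slc15a3 and Slc39a6 are dotted in every column, and no gene that fell is dotted in periinfarct at 3 d.

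Counts by role are small and were not tested against the shares of all genes. Of all genes 8.02%, 9.5%, 17.1% and 9.13% were called higher in core and periinfarct at 24 h and core and periinfarct at 3 d. The shares called lower were 6.55%, 9.92%, 13.4% and 1.25%. By role, the metal transporters held rises at both times (at 24 h 4 of 23 genes in either area, at 3 d 7 in core against 2 in periinfarct, with 1, 2, 1 and 0 falls in the same order). Ion exchangers and cotransporters, 30 genes, had 1 rise and 2 falls in core at 24 h, 1 and 4 in periinfarct, and at 3 d 4 rises and 10 falls in core but 3 and 0 in periinfarct. Transmitter uptake with related Slc6 carriers, 13 genes, had 1 rise and 4 falls, 0 and 4, 2 and 4, and 1 and 0 in the same order. The falls in core at 3 d included the amino acid carriers Slc6a15 and Slc6a17. The 22 amino acid transporters had 1 rise and 2 falls, 1 and 3, 5 and 2, and 2 and 0. The 5 nucleotide sugar and sugar phosphate transporters had a single call, a fall of Slc37a3 in periinfarct at 24 h that was lost with the 75th percentile scaling, and the 3 carriers of phosphate and urea had none.

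**Figure D3:**
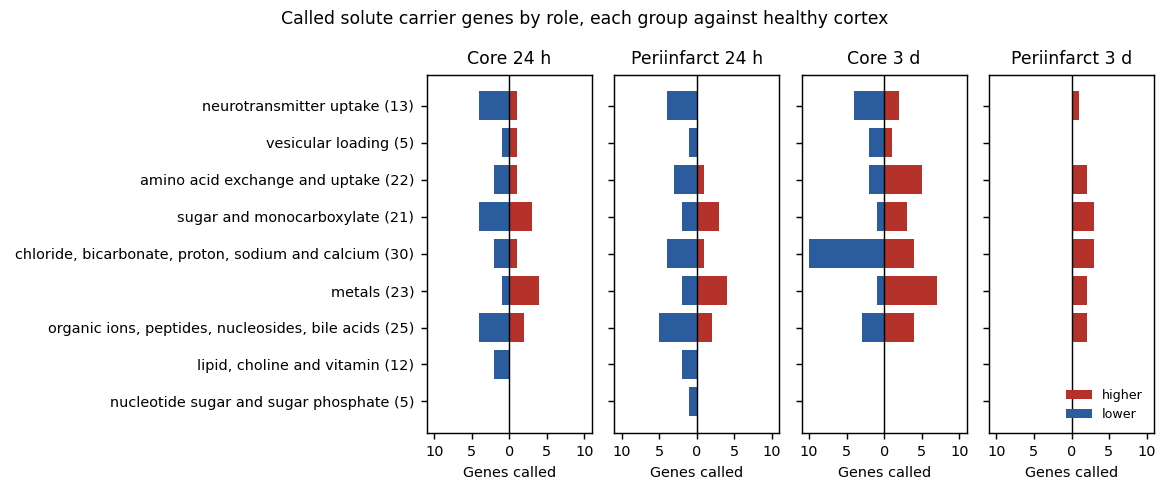
Number of SLC genes of each role called higher or lower than healthy cortex (bars, with the number of genes of a role in parentheses) in core and periinfarct at 24 h and 3 d. The phosphate and urea carriers and the genes that are not transporters are not drawn, and transmitter uptake includes related Slc6 carriers. Falls among ion transporters were most frequent in core at 3 d, with 10 of 30 genes, and rises among metal transporters too, with 7 of 23.

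Among carriers of monocarboxylates and sugars, the lactate exporter and the fructose carrier stood out. Slc16a3 encodes MCT4, which lets glycolytic cells release lactate with a proton. Its log2 signal was 7.70, 7.69, 7.70 and 7.75 on the healthy arrays, 10.41, 11.39, 11.69 and 11.72 in core, with 10.37, 10.40, 11.09 and 11.90 in periinfarct at 24 h. The 3 d arrays read 11.48, 11.58, 10.53 and 11.74 in core, with 9.81, 10.73, 8.25 and 9.67 in periinfarct, in the order of pools 9 to 12. Every ischemic array lay above every healthy array, and the lowest was that of pool 11. Slc16a3 was 12.1-fold higher in core (3.60 ± 0.36 log2, adjusted p = 3.1e-09) and 9.39-fold higher in periinfarct (3.23, adjusted p = 2.2e-08) at 24 h. The 3 d rise was 12.3-fold in core (3.62, adjusted p = 7e-10) and 3.75-fold in periinfarct (1.91, adjusted p = 0.00028). On the sham ipsilateral arrays it was 9.13, 8.90, 7.79 and 7.73 at 24 h, a change of 0.68 (adjusted p = 0.26), and 7.66 to 8.27 at 3 d.

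The promoter of Slc16a3 is printed because the gene is among those most raised in every ischemic area and is known as a hypoxia target. The 250 bases before its start in RefSeq (build GRCr8, chr10:106712078-106712327, plus strand) hold no ACGTG or GCGTG, the core letters of the hypoxia response element, on either strand, which says only that these letters are not in this window.
Slc16a3: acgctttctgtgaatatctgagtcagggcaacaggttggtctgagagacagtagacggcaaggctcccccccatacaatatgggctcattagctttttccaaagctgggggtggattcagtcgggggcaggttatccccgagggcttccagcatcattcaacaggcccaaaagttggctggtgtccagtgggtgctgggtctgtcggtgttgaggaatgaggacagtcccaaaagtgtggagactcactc
Of 27457 promoters of this length, 37.9% hold at least 1 such match on either strand, and of the 126 SLC genes with an entry, 56.3%.

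The other monocarboxylate genes moved less or the other way. Slc16a1 (MCT1, the lactate carrier of vessels and glia) was not called, with changes of 0.51, 0.66, 0.53 and 0.38 in core and periinfarct at 24 h and core and periinfarct at 3 d. Slc16a7 (MCT2, the neuronal lactate importer) fell in periinfarct at 24 h (−1.05, adjusted p = 2e-05) and was −0.99, −0.92 and −0.54 elsewhere, under the 2-fold limit, and the call was lost against sham cortex. Slc16a14, whose substrate is little known, was 4.22 to 4.91 on healthy arrays, 6.01 to 6.38 in core and 5.86 to 7.23 in periinfarct at 24 h. It was 3.00-fold higher in core (adjusted p = 1.1e-06) and 3.69-fold higher in periinfarct (adjusted p = 4.4e-08), with no overlap of arrays. Its arrays at 3 d, 3.79 to 4.60 in core and 4.36 to 5.00 in periinfarct, overlapped the healthy arrays, and the fall from 24 h was 1.85 on the log2 scale in core (adjusted p = 4e-08). With normexp background correction the calls of this dim gene were lost. That setting adds a fixed offset to every signal, which shrinks changes of dim genes and can alone bring them under the 2-fold limit. For this gene and the other dim genes below, a call lost with normexp therefore does not decide whether the call is fragile.

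Among sugar carriers, Slc2a5 (GLUT5, a fructose carrier that in brain marks microglia) was 7.91, 7.62, 7.57 and 7.82 on healthy arrays and 7.49 to 8.68 on the ischemic arrays at 24 h. On the 3 d arrays it was 11.17, 10.26, 10.08 and 11.18 in core, with 10.30, 10.35, 8.44 and 10.57 in periinfarct, again lowest in pool 11 but above every healthy array. It was 7.67-fold higher in core (2.94, adjusted p = 1.5e-09) and 4.54-fold higher in periinfarct (2.18, adjusted p = 7.1e-06) at 3 d, and these calls held under every alternative. Slc2a9, a carrier of urate and hexoses, was 5.02 to 6.90 on healthy arrays and 7.62 to 9.08 in core at 3 d, a 7.23-fold rise (adjusted p = 3.7e-06), and its rise in periinfarct (2.68-fold, adjusted p = 0.029) was lost against sham cortex and without any of 6 arrays. Slc5a3, the sodium-coupled importer of the osmolyte myo-inositol, was 8.62 to 8.98 on healthy arrays, 9.34 to 10.19 in core and 9.94 to 10.77 in periinfarct at 24 h. Its rise was 2.66-fold in periinfarct (adjusted p = 8.1e-05) and 2.04-fold in core (adjusted p = 0.0033). The call in core was lost with the mean of its probes and without core pool 2 or 4 or healthy pool 20. Slc2a3 (GLUT3, the neuronal glucose carrier) was not called against healthy cortex, with changes of 0.42, 0.19, −0.64 and 0.11.

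Slc2a10 (GLUT10) went the other way at 24 h. Its arrays read 5.42 to 6.00 in healthy cortex, 3.19 to 3.60 in core and 3.91 to 4.46 in periinfarct at 24 h, and 5.36 to 6.14 in both areas at 3 d. It fell by 2.27 on the log2 scale in core (4.81-fold, adjusted p = 8e-08) and by 1.38 in periinfarct (2.61-fold, adjusted p = 0.00013), and at 3 d the changes from healthy cortex were −0.02 and 0.09. The falls were lost with normexp, and that in periinfarct against sham cortex.

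**Figure D4:**
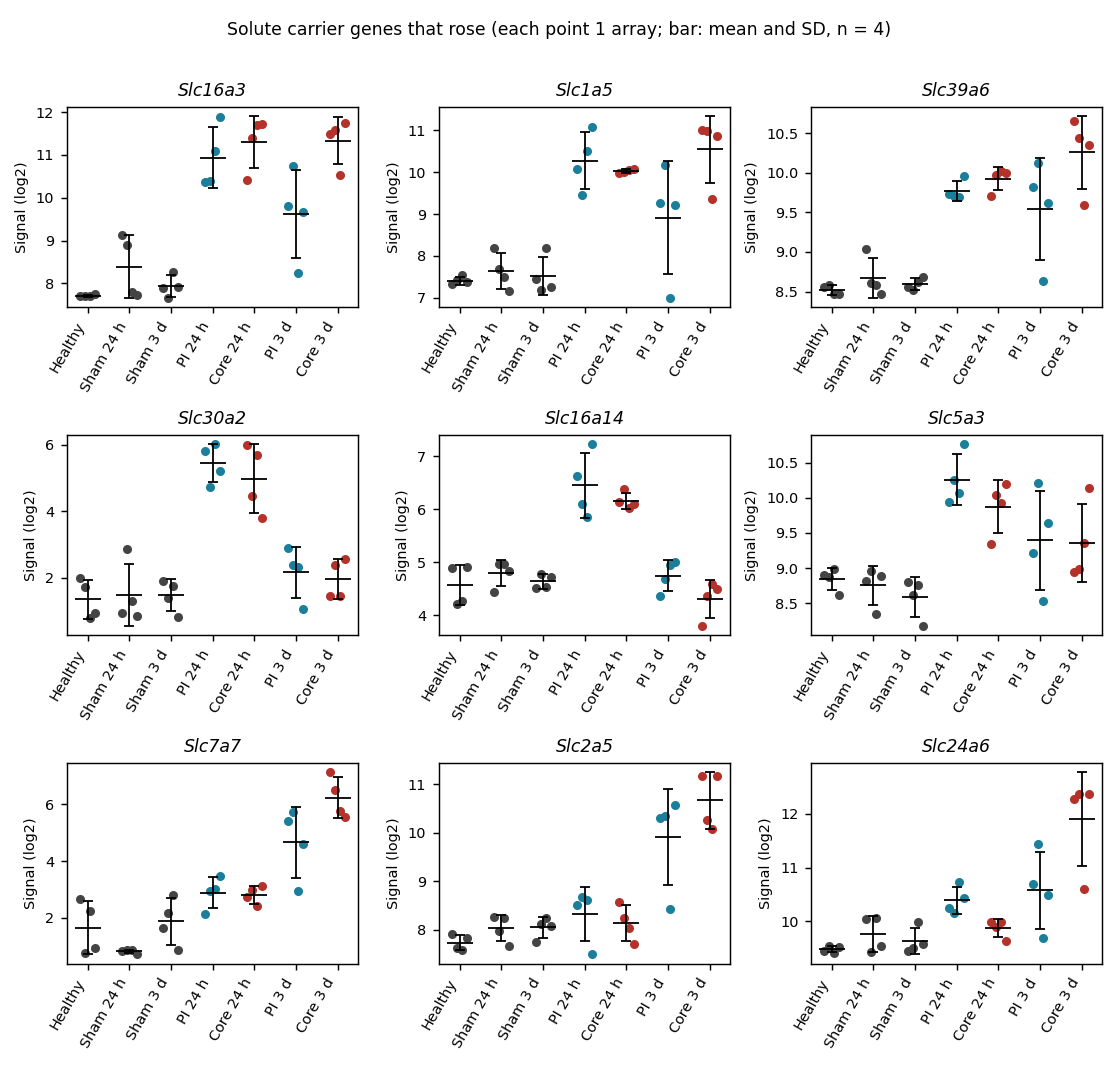
Log2 signal (vertical axis) of 9 SLC genes that rose, on each array of healthy, sham ipsilateral and ischemic cortex (points), with mean and SD (n = 4). Slc30a2 and Slc16a14 are high at 24 h, Slc7a7, Slc2a5 and Slc24a6 at 3 d, and Slc16a3, Slc1a5 and Slc39a6 at both times.

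Among amino acid transporters, Slc1a5 and Slc7a7 rose. Slc1a5 encodes ASCT2, an exchanger of glutamine and other neutral amino acids found in dividing and activated cells. Its log2 signal was 7.32, 7.41, 7.54 and 7.37 on healthy arrays, 9.98, 10.01, 10.04 and 10.08 in core, with 10.08, 9.44, 10.51 and 11.07 in periinfarct at 24 h. The 3 d arrays read 11.02, 10.97, 9.35 and 10.85 in core, with 9.26, 10.16, 6.99 and 9.21 in periinfarct, where pool 11 lay below all healthy arrays. The rises were 6.15-fold (adjusted p = 5.2e-06) and 7.30-fold (adjusted p = 1e-06) in core and periinfarct at 24 h, and 8.81-fold (adjusted p = 5.5e-08) and 2.83-fold (adjusted p = 0.0073) at 3 d. The last call was lost without pool 10. Slc7a7 encodes y+LAT1, which exports cationic amino acids and is expressed in macrophages. No healthy array had it well above background (0.76 to 2.68), and it read 7.14, 6.50, 5.76 and 5.55 in core, with 5.40, 5.71, 2.93 and 4.60 in periinfarct at 3 d. Set against these healthy signals below background, it was 20.1-fold higher in core (adjusted p = 8e-09) and 6.75-fold higher in periinfarct (adjusted p = 9.9e-05). These calls were lost with normexp, which for a gene this dim does not decide whether they are fragile. For such a fold each array of the lower group kept its own signal, though below background. Where that signal was under the lowest one that counts as above background on the array, the latter replaced it. If no signal was replaced, this is the measured fold. Such folds are not lower bounds, because the true level of a transcript below background is not known.

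Smaller rises in core at 3 d came from members of the Slc38 family, which carry glutamine and other neutral amino acids: Slc38a6 (1.39, adjusted p = 0.00051), the lysosomal arginine sensor Slc38a9 (1.04, adjusted p = 0.006) and Slc38a5 (1.01, adjusted p = 0.019). Their calls were lost with normexp. Slc38a3 (SNAT3), through which astrocytes release glutamine, fell at 24 h. It read 7.20 to 7.92 on healthy arrays, 5.46 to 6.35 in core and 5.35 to 6.47 in periinfarct, a fall by 1.61 on the log2 scale in core (3.06-fold, adjusted p = 1.4e-06) and 1.44 in periinfarct (2.72-fold, adjusted p = 7e-06), with no overlap, lost with normexp. Slc7a4, an orphan relative of the cationic amino acid carriers, fell by 2.09 in periinfarct at 24 h (adjusted p = 4.7e-05), also lost with normexp. Slc7a10 (Asc-1, an exchanger of glycine and D-serine) fell by 1.42 in core at 3 d (2.68-fold, adjusted p = 7.2e-06), from 11.04 to 11.50 on healthy arrays to 9.11, 9.30, 10.34 and 10.41. The large amino acid exchanger of vessels was not called in any of the 4 comparisons: its light chain Slc7a5 changed by 0.70, 0.39, −0.08 and −0.09, and its heavy chain Slc3a2 by 0.48, 0.60, 0.61 and 0.50. The arginine importer Slc7a1 changed by 0.25, 0.52, −0.69 and −0.32 and was not called.

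Metal transporters gave rises at both times. Slc11a1 encodes NRAMP1, which pumps divalent metals out of the phagosomes of macrophages. It was 5.45 to 6.43 on healthy arrays, 6.82 to 8.11 in core and 6.63 to 8.19 in periinfarct at 24 h, and 9.73, 9.42, 8.19 and 9.15 in core, with 8.18, 9.07, 5.67 and 7.74 in periinfarct at 3 d. Among ischemic arrays, only the periinfarct array of pool 11 lay within the healthy range. The rises were 3.23-fold (adjusted p = 0.0029) and 3.07-fold (adjusted p = 0.0031) at 24 h and 9.87-fold (adjusted p = 9.8e-08) and 3.60-fold (adjusted p = 0.0024) at 3 d. With normexp the call in core at 3 d remained and the other 3 were lost.

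Slc39a6 and Slc30a2 move zinc in opposite senses, the former into the cytosol and the latter out of it into vesicles. Slc39a6 was 8.55, 8.59, 8.46 and 8.47 on healthy arrays, 9.71 to 10.02 in core and 9.69 to 9.95 in periinfarct at 24 h, and 10.65, 10.44, 9.59 and 10.35 in core, with 9.82, 10.12, 8.63 and 9.61 in periinfarct at 3 d. It was 2.65-fold and 2.38-fold higher at 24 h (adjusted p = 1.2e-06 and 6.2e-06) and 3.34-fold and 2.04-fold higher at 3 d (adjusted p = 5e-09 and 0.00026), and all its ischemic arrays lay above all healthy arrays. The last of these calls was lost with normexp, with the slide as a block, against sham cortex and without pool 9 or 10.

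No array of healthy cortex had Slc30a2 well above background (0.77 to 1.97). It read 5.99, 4.45, 5.68 and 3.78 in core, with 5.81, 4.74, 6.02 and 5.22 in periinfarct at 24 h, and no 3 d array of either area had it above background (1.06 to 2.89). Reckoned as for Slc7a7, it was 10.4-fold higher in core (adjusted p = 3.8e-06) and 14.4-fold higher in periinfarct (adjusted p = 4.3e-07) at 24 h than in healthy cortex. It was 8.11-fold (adjusted p = 3.3e-05) and 9.78-fold (adjusted p = 2.9e-05) lower at 3 d than at 24 h. These are not lower bounds either. The calls were lost with normexp, whose offset shrinks changes of dim genes, so that this loss does not decide whether they are fragile. The metal-binding proteins Mt1a and Mt2A, which are not SLC genes, rose in all 4 comparisons, by 3.32, 3.05, 3.06 and 2.15 for Mt1a and by 2.27, 2.14, 2.33 and 1.63 for Mt2A.

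The promoters of both zinc genes are printed because both rose at 24 h while their proteins move the metal in opposite senses (RefSeq, build GRCr8, 250 bases before the start on the strand of the gene). Capitals mark ACGTG or GCGTG on either strand in Slc39a6 (chr18:16160164-16160413, minus strand, 3 matches that begin 199, 125 and 73 bases before the start). In Slc30a2 (chr5:151843201-151843450, plus strand) they mark TGCACNC or TGCGCNC on either strand, the core of the metal response element (2 matches, 89 and 21 bases before the start). The Slc39a6 promoter holds 0 matches to the metal motif, and that of Slc30a2 holds 0 matches to ACGTG or GCGTG.
Slc39a6: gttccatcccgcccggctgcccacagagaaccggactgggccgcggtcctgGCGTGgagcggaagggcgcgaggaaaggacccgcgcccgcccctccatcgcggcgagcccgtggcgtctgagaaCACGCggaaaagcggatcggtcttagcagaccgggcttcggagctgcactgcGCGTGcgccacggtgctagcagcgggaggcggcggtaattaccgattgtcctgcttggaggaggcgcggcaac
Slc30a2: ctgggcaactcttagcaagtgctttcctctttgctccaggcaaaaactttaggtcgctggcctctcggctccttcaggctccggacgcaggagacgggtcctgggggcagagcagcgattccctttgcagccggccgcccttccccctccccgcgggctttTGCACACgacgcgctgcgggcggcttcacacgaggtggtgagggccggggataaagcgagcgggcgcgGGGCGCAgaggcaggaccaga
The metal motif is in 21.2% of all promoters of this length and in 30.2% of the 126 SLC promoters. A match describes letters only and not binding.

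Other metal genes changed mainly in core at 3 d. Slc39a8, an importer of zinc, iron and manganese, read 6.30 to 6.74 on healthy arrays and 8.92, 8.85, 7.27 and 7.80 in core at 3 d, 3.16-fold higher (adjusted p = 1e-06). Slc31a2, a copper transporter of endosomes, rose by 1.51 (adjusted p = 0.00024) and the zinc importer Slc39a4 by 1.18 (adjusted p = 0.00054), both calls lost with normexp. The zinc importer Slc39a10 fell by 1.16, 1.32 and 1.28 on the log2 scale in core and periinfarct at 24 h and in core at 3 d (adjusted p = 0.002, 0.00039 and 0.00029), and all 3 calls were lost against sham cortex. The magnesium transporter Slc41a2 and Slc39a11 rose by the reported probe, but another probe of each was not called. The zinc exporter Slc30a1 (0.32, −0.05, −0.18 and −0.10) and the zinc and iron importer Slc39a14 (0.56, 0.72, −0.12 and 0.29) were not called, nor was the iron exporter Slc40a1, ferroportin, against healthy cortex. Slc40a1 was higher in core at 3 d than at 24 h by 1.12 (adjusted p = 0.00049).

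Among transmitter uptake genes, Slc6a13 (GAT2), the GABA and taurine carrier of leptomeninges and vessels, changed at 24 h and not at 3 d. Its arrays read 8.18, 7.95, 7.84 and 8.36 in healthy cortex, 6.01, 6.80, 4.24 and 4.63 in core, with 6.63, 6.79, 5.83 and 5.16 in periinfarct at 24 h, without overlap. At 3 d they read 7.66, 8.55, 7.43 and 7.33 in core, with 7.74, 8.50, 8.08 and 7.52 in periinfarct, overlapping healthy cortex. The fall at 24 h was 6.32-fold in core (adjusted p = 3.6e-06) and 3.94-fold in periinfarct (adjusted p = 0.00015), and from 24 h to 3 d it rose 4.99-fold (adjusted p = 1.6e-05) and 3.62-fold (adjusted p = 0.00086). The glutamate transporter Slc1a6 (EAAT4) fell by 1.29, 1.69 and 1.89 on the log2 scale in core and periinfarct at 24 h and core at 3 d (adjusted p = 0.00081, 2.2e-05 and 1.3e-06), the first lost with normexp. The neuronal glutamate and cysteine importer Slc1a1 (EAAT3) was not called, at −0.09, −0.77, −0.80 and −0.57, and neither was the astrocytic GABA carrier Slc6a11.

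Glycine and taurine carriers differed among themselves. The astrocytic glycine importer Slc6a9 (GlyT1) fell by 1.05 in core and 1.16 in periinfarct at 24 h (adjusted p = 0.0073 and 0.0023), both lost against sham cortex. Slc6a5 (GlyT2), the importer of glycine neurons of spinal cord and brainstem, was above background on no healthy array (1.65 to 2.10). It read 2.70, 4.51, 5.47 and 6.68 in core at 24 h, 4.54, 4.55, 3.92 and 5.63 in core at 3 d, and 6.30, 5.64, 1.53 and 5.91 in periinfarct at 3 d, where pool 11 lay below all healthy arrays. Set against these healthy signals below background, Slc6a5 was 7.29-fold higher in core at 24 h (adjusted p = 0.002) and 6.45-fold in core at 3 d (adjusted p = 0.0016). In periinfarct it was 7.33-fold higher at 3 d (adjusted p = 0.0037), and at 24 h the change was 0.84 and not called. All these calls were lost with normexp, which for a gene this dim does not decide whether they are fragile. The taurine importer Slc6a6 rose 2.13-fold in core at 3 d (adjusted p = 5e-06), lost with normexp.

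Of the 5 genes of vesicular loading, 1 rose and 1 fell in core at 24 h, and 1 rose and 2 fell in core at 3 d. Slc30a3 (ZnT3), which loads zinc into glutamatergic vesicles, read 8.53, 8.78, 8.81 and 8.69 on healthy arrays, 7.15 to 7.72 in core and 7.48 to 7.71 in periinfarct at 24 h, and 6.83, 6.85, 7.84 and 7.08 in core, with 7.44, 7.48, 8.14 and 7.98 in periinfarct at 3 d. No ischemic array reached the healthy arrays. It fell 2.45-fold in core (adjusted p = 9.3e-06) and 2.13-fold in periinfarct (adjusted p = 6.8e-05) at 24 h, both lost against sham cortex, and 2.93-fold in core at 3 d (adjusted p = 9.9e-08). Slc18a3, the vesicular acetylcholine transporter, read 6.93 to 7.18 in healthy cortex and 7.45, 9.12, 9.36 and 8.58 in core at 24 h, a 3.08-fold rise (adjusted p = 3.8e-06), and was called in no other ischemic group. Slc18a1, a vesicular monoamine transporter, fell by 1.03 in core at 3 d (adjusted p = 0.00088), a call lost without any of 4 arrays. The vesicular nucleotide transporter Slc17a9 rose there by 1.19 (adjusted p = 0.0042). Both of these were lost with normexp.

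Ion cotransporters and exchangers, some of them known from neurons, fell mainly in core at 3 d. Slc12a5 (KCC2) extrudes chloride from mature neurons and so sets the direction of GABA currents. It read 15.57, 15.93, 15.74 and 15.86 on healthy arrays, 14.63 to 14.93 in core and 14.43 to 15.22 in periinfarct at 24 h, and 13.72, 14.04, 14.98 and 14.29 in core, with 14.68, 14.58, 15.60 and 15.26 in periinfarct at 3 d. It fell 2.87-fold in core at 3 d (1.52 ± 0.19 on the log2 scale, adjusted p = 8.4e-08). In the other groups the changes were −0.96, −0.91 and −0.75, under the 2-fold limit, with the periinfarct array of pool 11 within the healthy range. Its inward counterpart Slc12a2 (NKCC1) was not called, at −0.15, 0.00, −0.25 and 0.01.

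In core at 3 d falls were called for the sodium/calcium exchangers Slc8a2 (−1.39, adjusted p = 0.002) and Slc8a3 (−1.20, adjusted p = 7.2e-06). The potassium-dependent exchangers Slc24a2 (−1.26, adjusted p = 0.00011) and Slc24a3 (−1.17, adjusted p = 1.4e-05) fell there too. So did the sodium/proton exchangers Slc9a2 (−1.42, adjusted p = 0.00029) and Slc9a5 (−1.28, adjusted p = 8.2e-05). The bicarbonate carrier Slc4a10 (−1.20, adjusted p = 1.6e-06) and Slc4a11, of the same family (−1.19, adjusted p = 0.00052), also fell. Of these, Slc8a2, Slc24a2 and Slc24a3 had also fallen in periinfarct at 24 h and Slc9a2 in core at 24 h. With normexp the 3 d calls of Slc8a2, Slc8a3, Slc9a2, Slc4a10 and Slc4a11 were lost, and against sham cortex those of Slc8a3 and Slc24a3. Slc8a1, the exchanger shared with heart, was not called. The sodium bicarbonate cotransporter of astrocytes, Slc4a4 (NBCe1), changed by −0.99 and −0.84 at 24 h (adjusted p = 1.6e-07 and 2.3e-06), just under the 2-fold limit, and by −0.33 and 0.15 at 3 d. Slc12a1 (NKCC2), a kidney cotransporter, was called lower in core at 3 d (−2.63 ± 1.08, adjusted p = 0.045), but its healthy arrays read 3.35, 6.49, 6.51 and 3.24 and overlapped those of core, and the call was lost under 5 settings and without any of 5 arrays.

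Of the 30 ion genes, 4 rose in core at 3 d, namely Slc24a6, Slc12a7, Slc12a4 and Slc4a1. Slc24a6, which extrudes calcium from mitochondria, read 9.45, 9.54, 9.42 and 9.53 on healthy arrays, 9.63 to 10.00 in core and 10.16 to 10.73 in periinfarct at 24 h, and 12.28, 12.37, 10.60 and 12.36 in core, with 10.69, 11.43, 9.69 and 10.50 in periinfarct at 3 d. Every ischemic array lay above every healthy array, and at 3 d pool 11 was lowest in both areas. It was 5.34-fold higher in core (adjusted p = 1.4e-08) and 2.13-fold higher in periinfarct (adjusted p = 0.0064) at 3 d, the latter lost against sham cortex and without pool 10. The potassium chloride cotransporter Slc12a7 (KCC4) rose by 1.95 in core at 3 d (adjusted p = 2.3e-07) and Slc12a4 (KCC1), of the same family, by 1.13 (adjusted p = 5.2e-06), lost without core pool 12. Slc4a1, the anion exchanger of red blood cells, read 7.28, 10.37, 6.05 and 5.85 in core at 3 d against 4.87 to 5.28 in healthy cortex (4.79-fold, adjusted p = 0.0066), and the call was lost without pool 10 and against sham cortex. The iodide and anion exchanger Slc26a4 rose 4.11-fold in core at 24 h (adjusted p = 0.00065), lost with normexp.

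Of 25 carriers of organic ions, peptides, nucleosides and bile acids, 4 fell and 2 rose in core, with 5 and 2 in periinfarct at 24 h. Slc22a8 (OAT3), which clears organic anions from brain and cerebrospinal fluid, read 5.51, 5.60, 5.93 and 6.09 in healthy cortex, 2.83, 3.54, 2.32 and 2.71 in core, with 3.28, 4.14, 3.22 and 2.97 in periinfarct at 24 h, without overlap. The 3 d arrays read 4.32 to 5.38 in core and 4.35 to 5.74 in periinfarct. It was 7.62-fold lower in core (adjusted p = 1.7e-07, above background on 1 of 4 core arrays) and 5.21-fold lower in periinfarct (adjusted p = 5e-06) at 24 h, and from 24 h to 3 d it rose 3.96-fold (adjusted p = 4.7e-05) and 3.55-fold (adjusted p = 0.00042). Sham cortex at 24 h read 4.19 to 5.29, also below healthy cortex (−1.03, adjusted p = 0.10). The calls of this dim gene were lost with normexp, whose offset shrinks such changes, so that the loss does not decide whether they are fragile.

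Slc15a2 (PEPT2), which takes up peptides into astrocytes and choroid plexus, read 7.70 to 8.23 in healthy cortex, 6.12 to 6.69 in core and 6.66 to 6.73 in periinfarct at 24 h. It fell 3.22-fold in core (adjusted p = 7.6e-07) and 2.42-fold in periinfarct (adjusted p = 4e-05), calls lost against sham cortex, and changed by −0.78 and −0.05 at 3 d. Slc27a1, a fatty acid carrier, read 11.19, 11.01, 11.38 and 11.51 in healthy cortex, 9.40 to 9.73 in core and 9.35 to 9.85 in periinfarct at 24 h. It fell 3.19-fold (adjusted p = 1.9e-09) and 2.97-fold (adjusted p = 5.1e-09), and at 3 d the changes were −0.81 and −0.48, while another probe of the gene was called lower in core at 3 d (−1.06). Slc13a3, a dicarboxylate carrier, fell 3.86-fold in core at 24 h (adjusted p = 1.2e-06). Slc13a5, the citrate importer, fell by 1.33, 1.31 and 1.91 in core and periinfarct at 24 h and core at 3 d (adjusted p = 1.4e-05, 1.5e-05 and 6.5e-09).

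**Figure D5:**
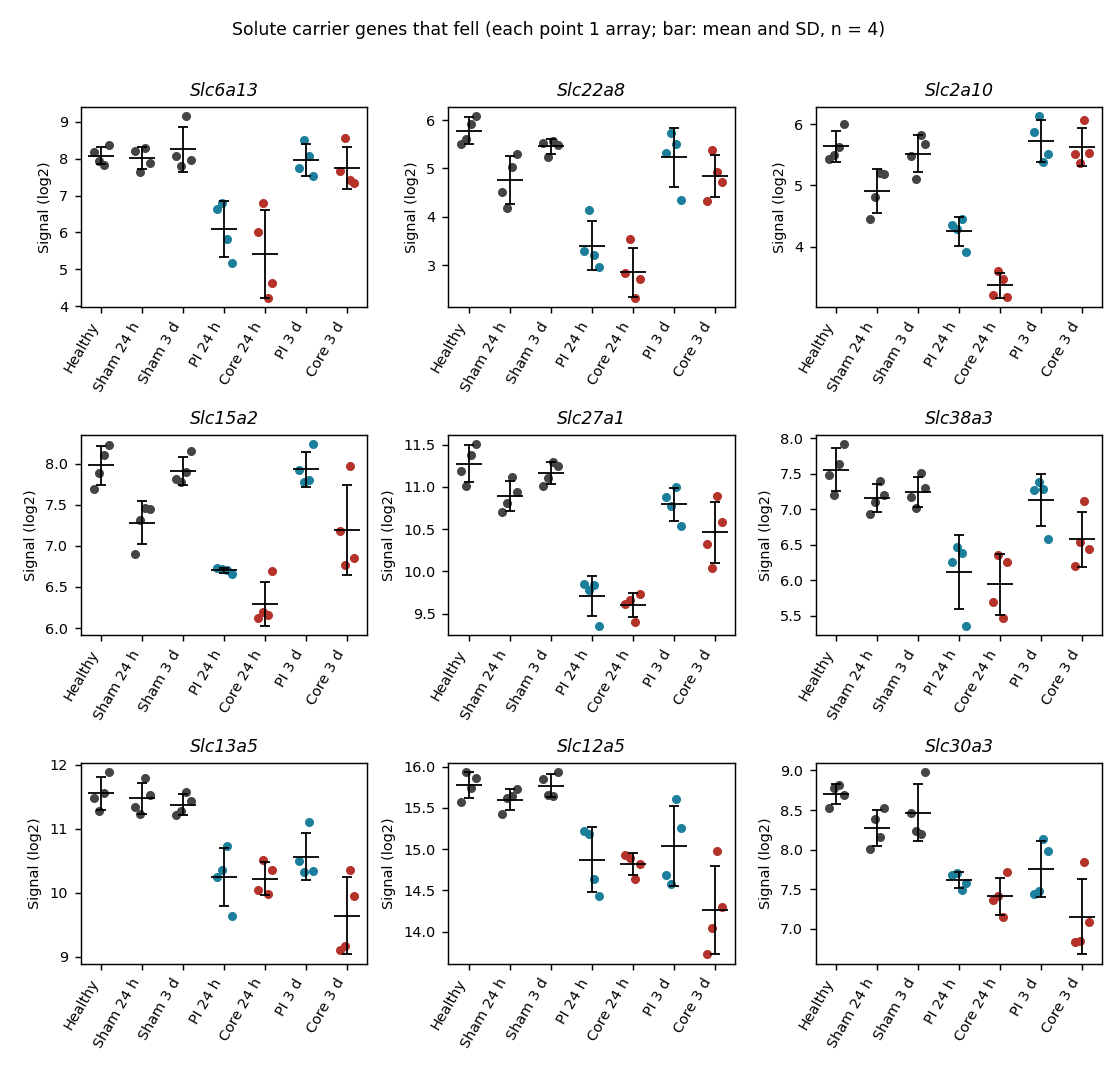
Log2 signal (vertical axis) of 9 SLC genes that fell, on each array of healthy, sham ipsilateral, periinfarct (PI) and core cortex (points), with mean and SD (n = 4). Slc6a13 and Slc2a10 are low at 24 h and near the healthy level at 3 d, Slc22a8 is low at 24 h and below all healthy arrays in core at 3 d, whereas Slc13a5, Slc12a5 and Slc30a3 are lowest in core at 3 d.

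The peptide and histidine carrier of lysosomes Slc15a3, known from macrophages, moved the other way. It read 6.23 to 6.62 on healthy arrays, 7.36 to 7.72 in core and 7.00 to 7.83 in periinfarct at 24 h, and 9.92, 9.48, 9.00 and 9.47 in core, with 8.66, 8.96, 6.54 and 8.00 in periinfarct at 3 d, where pool 11 lay within the healthy range. The rises were 2.08-fold and 2.01-fold at 24 h (adjusted p = 0.0059 and 0.0063), both lost with normexp, and 7.93-fold (adjusted p = 4.6e-10) and 2.94-fold (adjusted p = 0.00024) at 3 d. The lysosomal nucleoside carrier Slc29a3 rose 2.60-fold in core at 3 d (adjusted p = 2.6e-08, lost with normexp), whereas the plasma membrane nucleoside carrier Slc29a1 was not called, at −0.02, 0.12, 0.90 and 0.59. Slc22a7 (OAT2) rose 4.65-fold in periinfarct at 24 h (adjusted p = 0.0013), lost with normexp. Of the scaffold proteins, Slc9a3r1 fell by 1.39 in core and 1.28 in periinfarct at 24 h (adjusted p = 4.2e-06 and 1.2e-05) and was lost against sham cortex.

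Lists of SLC genes known from cell types or tissues of the brain were drawn up with earlier results of these data known, and a gene may stand in more than 1 of them, as Slc22a8 and Slc40a1 do. Their counts were not tested against the shares of all genes, which are given above with the roles. Of 9 measured genes known from phagocytes, 3 rose and 1 fell in each area at 24 h, and at 3 d 6 rose in core and 5 in periinfarct, with medians of 0.40, 0.59, 2.94 and 1.56 in core and periinfarct at 24 h and core and periinfarct at 3 d. The gene that fell was Slc46a3, a lysosomal carrier, by 1.42 and 1.49. Of 9 genes known from astrocytes, 5 fell in each area at 24 h, 2 in core at 3 d and 0 in periinfarct at 3 d (medians −1.05, −1.16, −0.81 and −0.43), and none rose. Of 13 genes known from neurons, 2, 5, 8 and 0 fell and none rose (medians −0.66, −0.91, −1.20 and −0.54). Of 4 genes known from meninges and choroid plexus, 3, 2, 0 and 0 fell, and all 4 were higher in core at 3 d than at 24 h (median 1.85). Of 7 genes known from vessels, Slc22a8 fell in both areas at 24 h, Slc38a5 rose in core at 3 d, and no other was called (medians 0.25, 0.39, 0.53 and 0.38). The summed signal of 8 other markers of meninges and fibroblasts was 15481 to 17438 in healthy cortex, 3012 to 8912 in core and 8949 to 18437 in periinfarct at 24 h, and 14267 to 38414 in core at 3 d. The choroid plexus markers Ttr, Folr1 and Kcnj13 summed to 119 to 224 in healthy cortex and 15 to 51 in core at 24 h. The astrocyte markers summed to 36490 to 43423 in healthy cortex, 19279 to 24868 in core and 23760 to 27582 in periinfarct at 24 h, while Gfap, which marks reactive astrocytes, rose by 2.87 and 3.33. Their part in the SLC results was not tested.

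Core and periinfarct were compared to ask how SLC genes differ between the infarct and its border. At 24 h 1 gene was higher in core, Slc18a3 (1.25, adjusted p = 0.018, against 0.0411% of all genes called higher), and 1 was lower, Slc16a11 (−1.47, adjusted p = 0.039, against 0.123%). Slc16a11 is a monocarboxylate carrier of the endoplasmic reticulum, and it read 10.54, 11.08, 9.49 and 10.21 in core, with 11.37, 12.31, 11.20 and 12.30 in periinfarct. Both calls were lost with the slide or the pool as a fixed block, and without core pool 3 or 4 or periinfarct pool 3, and that of Slc16a11 also without periinfarct pool 2 or 4.

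At 3 d 10 SLC genes were higher in core than in periinfarct (6.17%, against 5.14% of all genes) and 0 were lower (against 0.545%). They were Slc16a3 (3.29-fold, adjusted p = 0.004), Slc1a5 (3.12-fold, adjusted p = 0.0075), Slc7a7 (2.98-fold, adjusted p = 0.035), Slc11a1 (1.46, adjusted p = 0.02), Slc15a3 (2.69-fold, adjusted p = 0.0034), Slc2a9, Slc24a6, Slc41a2, Slc39a8 and the nucleoside importer Slc28a2. Without the periinfarct array of pool 11 there were 0, without the core array of that pool 22, and without both 14. Without the core array of pool 9 there were 3 and without that of pool 10 there were 5. No slide held both areas.

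From 24 h to 3 d, measured in different rats, 29 SLC genes rose in core (17.9%, against 12.9% of all genes) and 10 fell (6.17%, against 4.46%). In periinfarct 15 rose (9.26%, against 4.61%) and 5 fell (3.09%, against 2.68%), or 12 in all without the 24 h array of pool 4. The rises in core joined genes that passed the healthy level with genes that were low at 24 h and overlapped healthy cortex at 3 d. The former included Slc7a7 (10.8-fold from signals below background, adjusted p = 3.2e-06) and Slc2a5 (2.53, adjusted p = 6.5e-08). Slc24a6 (2.02, adjusted p = 8.7e-07) and Slc29a3 (1.78, adjusted p = 4.3e-10) were also among them. The latter included Slc6a13 and Slc2a10 (4.76-fold, adjusted p = 5.4e-08). Slc22a8 also rose, but its core arrays at 3 d all lay below all healthy arrays (−0.95, adjusted p = 0.03, under the 2-fold limit). Of the 21 genes that had fallen in core at 24 h, 7 were called higher at 3 d than at 24 h and 7 were also called lower than healthy cortex at 3 d. In periinfarct, Slc15a2 (1.23, adjusted p = 0.00017), Slc27a1 (1.09, adjusted p = 7.9e-06) and Slc2a5 (1.59, adjusted p = 0.00029) rose, while Slc1a5 (−1.37, adjusted p = 0.015) and Slc16a3 (−1.32, adjusted p = 0.0097) fell. The last pair of calls was lost without pool 11 (adjusted p = 0.052 and 0.051 without both of its arrays).

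The change from 24 h to 3 d, taken with its sign, differed between core and periinfarct for 15 genes. The core change minus the periinfarct change was positive for 6 (3.70% of SLC genes, against 3.31% of all genes) and negative for 9 (5.56%, against 3.33%). The former included Slc1a5 and Slc24a6, with 1.89 (adjusted p = 0.033) and 1.84 (adjusted p = 0.013). The latter included Slc22a3, an organic cation carrier (−1.57), and Slc1a6 (−1.37, adjusted p = 0.033). The count ranged from 0, without the 3 d core array of pool 9, to 37, without that of pool 11, and was 0 with the pool as a fixed block. It was 4 and 9 without the 3 d core arrays of pools 10 and 12, 23 and 5 without the 3 d periinfarct arrays of pools 10 and 11, and 5 and 4 without the 24 h periinfarct arrays of pools 3 and 4.

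In the cortex of sham-operated rats and on the side opposite the infarct no SLC gene was called by limma. Of the 9722 genes tested, 0% were called there at an adjusted p below 0.05 with at least a 2-fold change. Sham ipsilateral cortex had 44 of 162 SLC genes with an unadjusted p below 0.05 against healthy cortex at 24 h, a share close to that of all genes (2648 of 9722), and 0 at 3 d, and the smallest adjusted p among SLC genes was 0.084 at 24 h. Without sham pool 8 at 24 h 5 were called. Contralateral cortex after infarct had 1 SLC gene with an unadjusted p below 0.05 at 24 h and 2 at 3 d against contralateral sham cortex. Slc16a3 read 7.60 to 8.14 and Slc1a5 6.83 to 7.73 on the contralateral arrays, around their healthy values.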

How the data were processed

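RNA of rat cortex was measured on 44 one-color Agilent arrays (4 for each of 11 groups, on 11 slides). The deposited files give background-subtracted signal intensities per spot from Feature Extraction 10.7.3.1, and the authors also deposited a normalized table of log2 values for 20395 probes, used here for gene symbols and as an alternative. The labels name a small RNA labelling kit where the paper's methods describe a gene expression protocol, and this difference was not resolved. No per-spot flag marked saturation.

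Following the study's methods, signals were thresholded at 1, quantile normalized and taken as log2. As a step added here, spots flagged as uneven or as outliers were set to missing. Of 41012 probes, 30514 passed 3 filters: above the 20th percentile and above background in at least 75% of the arrays of a group, and a coefficient of variation above 2.5%. The share of spots well above background ran from 62.5% to 77.7% over the arrays. All arrays were fitted in limma 3.58.1 (R 4.3.3) with 1 mean per group (residual degrees of freedom 33), with Benjamini-Hochberg adjustment over 30514 probes per comparison. A gene was represented by its brightest probe, and among 116 pairs of another probe and a comparison with healthy cortex 12 calls differed and 0 were opposite. P-values measure the spread between arrays within groups, each from another pool, and the 4 pools per group limit the precision. The main fit treated core, periinfarct and contralateral arrays of the same pool as independent, so its p-values between areas ignore that pairing. RefSeq names were matched by accession for 144 SLC genes and by symbol for 18. Tables and figures were made in R with the package data.table (version 1.17.8) and with pandas 2.3.3, numpy 2.4.6 and matplotlib 3.10.9 in Python 3.11.15. The fit was tested on simulated data.

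The members and lists were chosen with earlier results of these data known. Named genes were the 8 largest rises and 8 largest falls per comparison with healthy cortex among called genes whose arrays do not overlap, the 5 largest per direction between areas and times, a list of genes of known roles, and Slc6a5 and Slc12a1. Counts of genes also include some that are not reported here. Other genes named were chosen after their values were seen.

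The pool numbers pair core and periinfarct arrays of the same rats. Over all probes the deviations of such pairs correlated by 0.147 at 24 h (other pairs −0.050) and −0.004 at 3 d (others 0.002). The alternatives were 75th percentile scaling, normexp background correction with an offset of 50, the deposited table, no probe filter, slide or pool as a block (pool also as a random effect, statmod 1.5.0, correlation 0.220), no fold minimum, sham cortex in place of healthy, the mean of probes, each array left out, and, added after the data were seen, both 3 d arrays of pool 11 left out. Each of the 4 comparisons with healthy cortex had 1 slide with both groups, on which all 34, 36, 49 and 13 called SLC genes had the same sign. The arrays on these slides also gave the calls, so these signs are no independent check for an effect of the slide.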

Additional observations from a re-analysis of the deposited data

Results flagged for a closer look

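Of 580 sets of 4 arrays tested among the named genes, 31 had a highest or lowest array whose gap to its nearest neighbor took up more of the range of the group than Dixon's 95% limit, and chance alone flags about 1 in 20. The value given is that gap as a share of the range.

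At 3 d the array of pool 11 was lowest for Slc1a5 in core (0.902), Slc24a6 in core (0.949), and Slc2a5 (0.874) and Slc6a5 (0.861) in periinfarct. The periinfarct array of pool 12 was highest for Slc12a2 (0.844) and lowest for Slc38a3 (0.860), and the core array of pool 12 was lowest for Slc30a1 (0.868). At 24 h the periinfarct array of pool 4 was lowest for Slc2a5 (0.861), Slc7a10 (0.840) and Slc27a1 (0.875) and highest for Slc39a6 (0.836), and that of pool 2 was highest for Slc4a4 (0.912). In core at 24 h the array of pool 4 was highest for Slc15a2 (0.883) and lowest for Slc26a4 (0.926), that of pool 3 lowest for Slc4a4 (0.897) and that of pool 1 lowest for Slc39a6 (0.852). In contralateral cortex at 24 h the array of pool 1 was lowest for Slc7a4 (0.873), Slc11a1 (0.856), Slc16a3 (0.911) and Slc39a6 (0.897), and at 3 d that of pool 11 was lowest for Slc1a1 (0.841).

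Among sham and healthy arrays, the contralateral sham array of pool 13 at 3 d was lowest for Slc1a1 (0.970) and highest for Slc26a4 (0.846), and that of pool 5 at 24 h lowest for Slc40a1 (0.871). Sham ipsilateral cortex of pool 15 at 3 d was highest for Slc7a10 (0.854), Slc7a5 (0.849) and Slc16a7 (0.875), and that of pool 6 at 24 h lowest for Slc6a11 (0.929). Healthy pool 18 was lowest for Slc7a1 (0.932) and highest for Slc38a2 (0.967), and healthy pool 20 highest for Slc16a3 (0.941), at 7.75 with the next array at 7.70.

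The change from 24 h to 3 d differed between core and periinfarct in the fit for 6 named genes, by 1.89 for Slc1a5, −1.37 for Slc1a6, 1.38 for Slc15a3 (adjusted p = 0.034), 1.41 for Slc16a11 (adjusted p = 0.047), −1.17 for Slc18a3 (adjusted p = 0.030) and 1.84 for Slc24a6. None of the 6 was called with the pool as a fixed block.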

How the results depend on the processing

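With normexp 4 SLC genes rose and 7 fell in core at 24 h, 4 and 8 in periinfarct, 12 and 14 in core at 3 d, and 5 rose in periinfarct. Normexp gave 6 for core against periinfarct at 3 d, 14 and 5 for the times in core and periinfarct, and 7 for the difference of the time changes. Its offset shrinks changes of dim genes, so that losses among such genes do not decide whether their calls are fragile. Without the fold minimum the counts were 24 and 45, 25 and 51, 49 and 53, 26 and 17, then 39, 84, 44 and 24. Against sham cortex 19 rose and 17 fell in core and 15 rose and 12 fell in periinfarct at 24 h, so that rises outnumbered falls, and with 75th percentile scaling 1 fell in periinfarct at 3 d. With the slide as a block core against periinfarct at 24 h gave 0 and the difference of time changes 9. With the pool paired as a fixed replicate block these were 0 and 0, and as a random effect the latter was 25. Without both arrays of pool 11, 4 fell in periinfarct at 3 d and the difference of time changes held for 24. Slc12a1 in periinfarct at 24 h, not called in the main fit, turned from 0.50 to −1.18 with the slide block in limma, where it was called lower (adjusted p = 0.024). The causes were not tested.

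With each array left out, rises ranged from 11 to 15 and falls from 21 to 26 in core, 10 to 13 and 20 to 33 in periinfarct at 24 h, 25 to 32 and 17 to 32 in core, and 6 to 16 and 0 to 4 in periinfarct at 3 d. Core against periinfarct gave 0 to 3 at 24 h and 0 to 22 at 3 d, the times 35 to 54 and 12 to 21, sham at 24 h 0 to 5, sham at 3 d and contralateral cortex 0 to 0, and the difference of time changes 0 to 37. Calls that held under every left-out array were 25 of 34 and 27 of 36 at 24 h and 37 of 49 and 6 of 13 at 3 d, core before periinfarct. For Slc7a7, Slc30a2 and Slc6a5 the folds rest on lower signals below background, so that their true size is not known.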

Other observations

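Of 24 transport partners that are not SLC genes by name, 17 had a probe. The organic anion carriers of vessels and astrocytes Slco1a4 and Slco1c1 fell in core and periinfarct at 24 h, by 1.61 and 1.24 on the log2 scale for Slco1a4 and by 1.88 and 1.37 for Slco1c1. At 3 d Slco1a4 was at −0.09 and 0.16, while Slco1c1 fell by 1.32 in core and was −0.55 in periinfarct. Emb, a chaperone of monocarboxylate carriers, rose by 1.50 in core at 3 d.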
